A study of Homo sapiens with 6 samples.

Results

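The neuropilins NRP1 and NRP2, the plexins PLXNA1, PLXNB1 and PLXNB2, the semaphorins SEMA3C, SEMA4B and SEMA7A, and the adhesion molecule L1CAM were followed in MCF-10A cells with ectopic CRB3. The array carries 29 probe sets annotated to these 9 genes, out of 54613 probe sets and 19775 named genes, and all 29 were read. L1CAM and NRP1 were chosen by their log2 differences between the groups, which had already been seen, so their values are given as a description with no test. MCF-10A cells are human mammary epithelial cells that grow indefinitely in culture without being tumorigenic. Cells infected with the pNG-Crb3 retrovirus, which encodes the apical polarity protein CRB3 (3 samples), were compared with cells infected with the empty pNG vector (3 samples). All 6 cultures were selected with puromycin, kept in normal MCF-10 growth medium, and harvested as proliferating monolayers at 70% confluence. No source used here says whether the infected cells were clones or pools, or whether each replicate was a separate infection. The p-values therefore cover the spread among these 6 samples and no more.

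Semaphorins are ligands, some secreted and some held on the cell surface, that steer axons, vessels and epithelial sheets by changing how cells adhere and move. Plexins are their signalling receptors, and the cytoplasmic part of a plexin acts on small GTPases. Neuropilins have short cytoplasmic tails and serve as co-receptors, binding class 3 semaphorins and members of the VEGF family. L1CAM is an immunoglobulin-type adhesion protein best known from growing axons, where it associates with NRP1 in rodent neurons.

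The CRB3 transcript was at log2 values of 12.16, 12.00 and 12.19 in CRB3-expressing cells, against 7.90, 7.59 and 7.85 in vector control cells, in the direction of the labels. Array medians lay between 5.84 and 5.88. The epithelial markers KRT5, KRT14, KRT18, CDH1, EPCAM and LAMB3 were all bright, with a list mean of 12.33 to 12.41 on CRB3-expressing arrays and 11.74 to 11.78 on vector control arrays. KRT14 and CDH1 were called higher (2 of 6, against 1.43% of all named genes), with log2 differences of 1.83 and 1.10. The higher list mean came mostly from these. KRT5, KRT18, EPCAM and LAMB3 had log2 differences of -0.040, 0.36, 0.38 and 0.021. Of the 6, 4 had an unadjusted p under 0.05 from limma, against 18.8% of all named genes. The values are the log2 values of the authors' Robust Multichip Average normalization, without detection calls. A level under 6 is called dim below, by convention. In these bulk samples, fewer cells with a transcript and less transcript per cell cannot be told apart.

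Among the 9 genes, the single probe sets with the largest differences between CRB3-expressing and vector control cells belonged to L1CAM, which was higher, and NRP1, which was lower. Averaged over its probe sets, NRP1 differed by less than SEMA4B, SEMA3C, PLXNB1 and PLXNA1. That average takes in 2 NRP1 probe sets that were dim in both groups, while those genes have none. The averages of NRP1 and PLXNA1 were close, at -0.20 and -0.21. A probe set was called when limma gave an adjusted p under 0.05 (Benjamini-Hochberg over all 54613 probe sets) and the fold change was above 1.5, and 1.31% of all probe sets were called (0.948% higher and 0.363% lower). Of the 23 probe sets of the other 7 genes, 0 were called higher and 0 were called lower, while 11 had an unadjusted p under 0.05 from limma (4 higher and 7 lower). On that rule 16.3% of all probe sets passed (8.15% higher and 8.16% lower). The 23 are not independent, because 11 of them belong to NRP2. All probe sets also include many dim ones: 7315 of the 19775 named genes were dim in both groups in their brightest probe set. With the adjusted p alone, 2 of these 23 passed, both lower, against 1.39% of all probe sets lower on that rule. That count was 0 without CRB3-expressing replicate 1 or 2 or vector control replicate 1 or 3. When probe sets with a mean under 6 were left out before the fit, it was 6 of the 19 that remained (2 higher and 4 lower). There the adjustment ran over fewer probe sets. The share of all remaining probe sets that passed was not counted, so the 6 have no background to be set against. The 2 groups did not overlap for 11 of the 23, against 21.8% of all probe sets. Their differences lay between -0.45 and 0.25 on the log2 scale, and the median was -0.11. The 95% intervals of the 23 differences, not adjusted for their number, reached from -0.66 to 0.44, and 21 of them stayed within a 1.5-fold change in either direction.

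**Figure D1:**
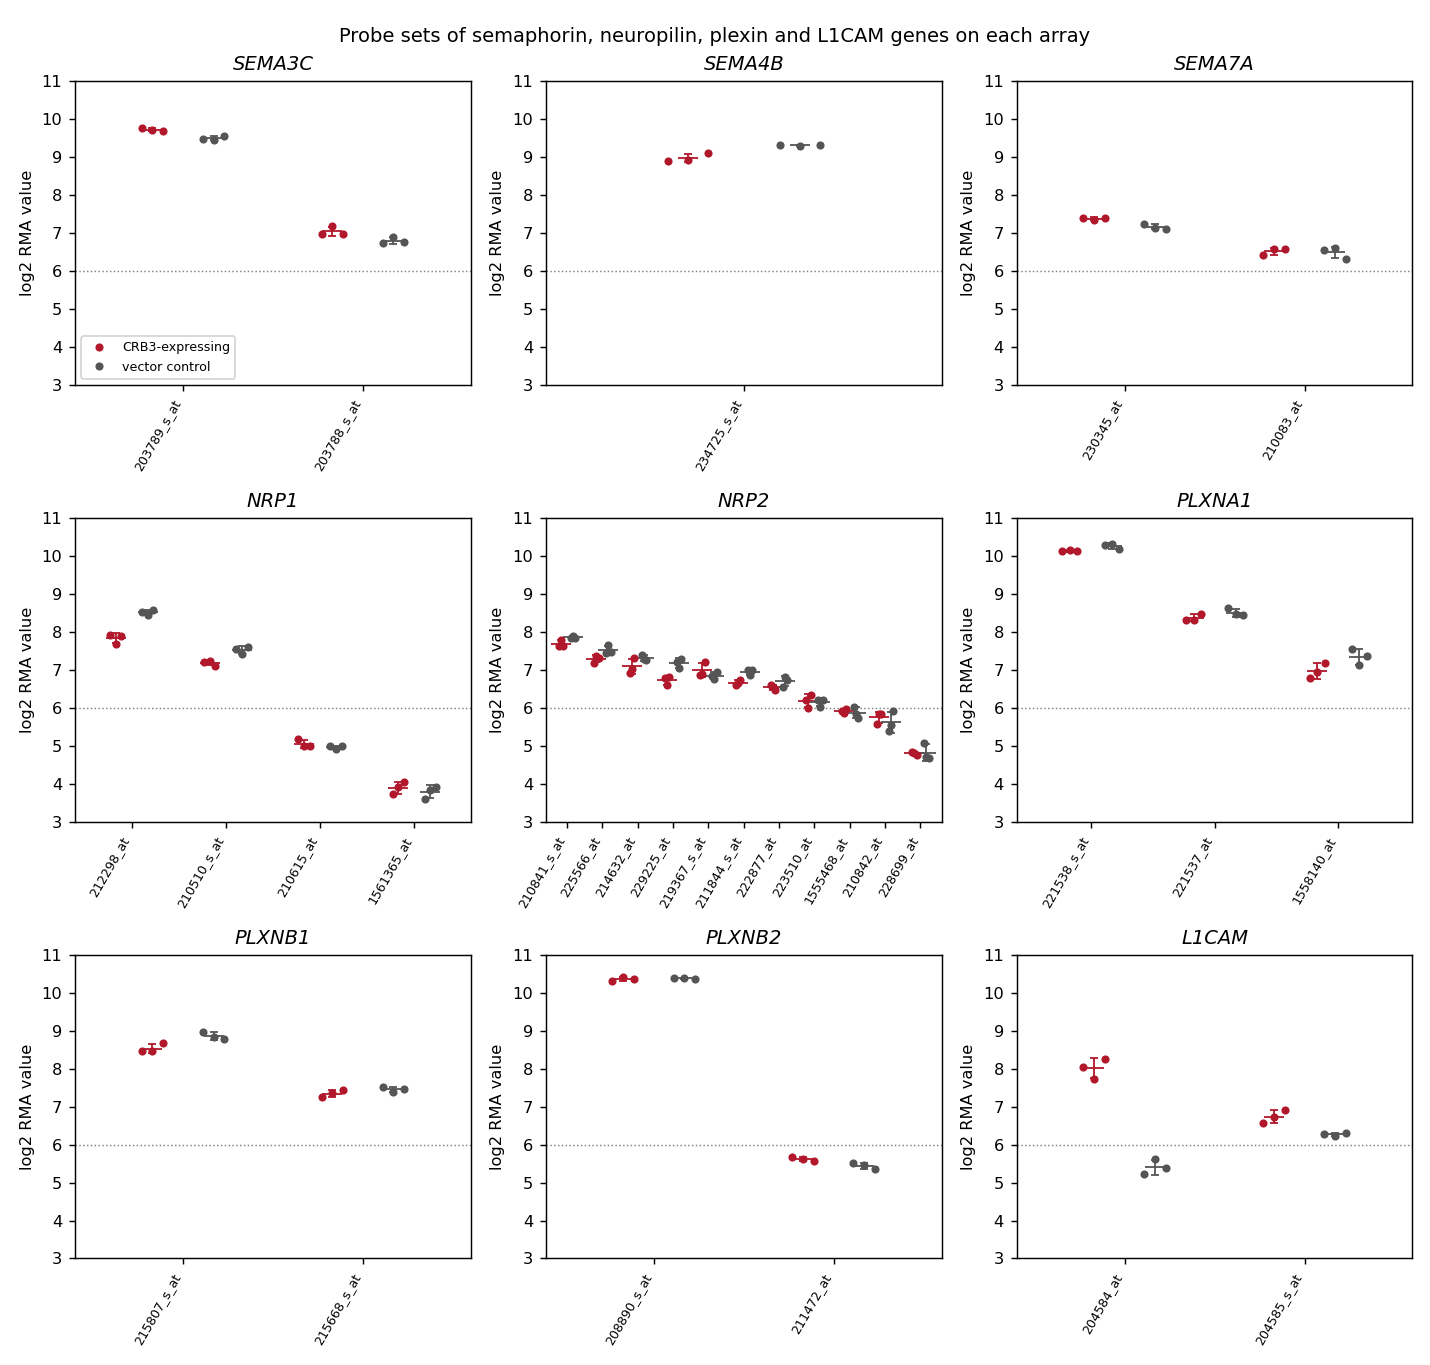
Log2 RMA value (y axis) of each probe set (x axis, brightest first) of the 9 genes on the 3 CRB3-expressing arrays (red) and the 3 vector control arrays (grey); points are arrays, bars are the mean and SD, and the dotted line marks a value of 6. The groups lie far apart for L1CAM 204584_at, at 8.01 and 5.40, and clearly apart for NRP1 212298_at, at 7.84 and 8.52, while those of PLXNB2 208890_s_at overlap at 10.36 and 10.37.

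Of the ligands, SEMA3C and SEMA4B lay to opposite sides of their vector control values. SEMA3C, a secreted semaphorin that signals through neuropilin and plexin complexes, had values of 9.76, 9.72 and 9.69 in CRB3-expressing cells, against 9.47, 9.46 and 9.55 in vector control cells. The groups did not overlap. The log2 difference was 0.23 (SE 0.061, 95% interval 0.090 to 0.37, adjusted p = 0.0910 from limma). When an array was left out, the adjusted p ran from 0.129 to 0.233 (limma). Its second probe set gave 6.98, 7.18 and 6.98 in CRB3-expressing cells, against 6.73, 6.90 and 6.76 in vector control cells, again without overlap (log2 difference 0.25, adjusted p = 0.152 from limma). When the 2 probe sets were averaged before the fit, the log2 difference was 0.24 (adjusted p = 0.0253 from limma over all genes), a 1.18-fold change that is far under the fold threshold.

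SEMA4B, a membrane-spanning semaphorin, has 1 probe set. It read 8.89, 8.93 and 9.10 in CRB3-expressing cells, against 9.31, 9.30 and 9.32 in vector control cells. Each CRB3-expressing array was below each vector control array, and the log2 difference was -0.34 (SE 0.071, 95% interval -0.50 to -0.18). Its adjusted p of 0.0364 from limma passed, but the 1.27-fold change did not reach the fold threshold. The adjusted p no longer passed in 5 of the 6 fits without 1 array (0.0242 to 0.133 over the 6) or with the replicate block (0.0696). In the fit over all genes with probe sets averaged, as given for SEMA3C, SEMA4B had an adjusted p of 0.0122 from limma. SEMA7A is tethered to the membrane by a lipid anchor and binds the plexin PLXNC1 and integrins that contain ITGB1. The brighter SEMA7A probe set gave 7.40, 7.34 and 7.39 in CRB3-expressing cells, against 7.24, 7.14 and 7.10 in vector control cells (log2 difference 0.21, adjusted p = 0.135 from limma). The other SEMA7A probe set overlapped between the groups, with a log2 difference of 0.033 (95% interval -0.17 to 0.24).

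Of the co-receptors, NRP1 was lower in CRB3-expressing cells in both of its brighter probe sets. Probe set 212298_at read 7.93, 7.69 and 7.89 in CRB3-expressing cells, against 8.53, 8.45 and 8.58 in vector control cells. The groups were separated by more than the range within either, and the means were 7.84 ± 0.13 and 8.52 ± 0.067 (SD, n = 3 each), a log2 difference of -0.68. Probe set 210510_s_at read 7.21, 7.24 and 7.11 in CRB3-expressing cells, against 7.54, 7.40 and 7.61 in vector control cells. Here the difference was -0.33, in the same direction and smaller. The remaining NRP1 probe sets, 210615_at and 1561365_at, were dim in both groups (5.05 and 3.89 in CRB3-expressing cells, against 4.96 and 3.79 in vector control cells), with differences of 0.088 and 0.10. Averaged over its 4 probe sets, NRP1 had a log2 difference of -0.20.

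Fibroblasts and endothelial cells are rich sources of NRP1, and their markers were read beside it. Of 5 fibroblast markers, 3 were dim in both groups, 0 were called higher and 1 was called lower, the matrix proteoglycan DCN. Of all named genes, 1.43% were called higher and 0.465% lower. DCN, read in probe set 201893_x_at, gave 7.06, 6.98 and 6.73 in CRB3-expressing cells, against 7.66, 7.61 and 7.78 in vector control cells (log2 difference -0.76, adjusted p = 0.00249 from limma). The mean of the fibroblast list was 5.92 to 5.97 on CRB3-expressing arrays and 6.05 to 6.13 on vector control arrays. COL1A1 had a log2 difference of 0.012. COL1A2, PDGFRB and LUM were dim in both groups, with log2 differences of -0.098, 0.030 and 0.098. The lower list mean thus came mostly from DCN. Of 6 endothelial markers, 0 were called and 1 had an unadjusted p under 0.05 by limma, against 18.8% of all named genes on that rule. The 1 was ROBO4, at 7.12 in CRB3-expressing cells, against 6.74 in vector control cells, without overlap. Its log2 difference was 0.37, and its adjusted p of 0.0453 from limma passed, but the change was under the fold threshold. The mean of the endothelial list was 5.82 to 5.85 on CRB3-expressing arrays and 5.70 to 5.83 on vector control arrays. The part of DCN-expressing cells in the NRP1 values was not tested.

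NRP2, the second neuropilin, which also binds VEGFC, is covered by 11 probe sets, none of which was called. Its probe sets did not all point one way. The groups did not overlap in 4 of the 11, all of them lower, against 21.8% of all probe sets in either direction. Of the 8 that were not dim in both groups, 229225_at had the largest difference, with values of 6.78, 6.59 and 6.80 in CRB3-expressing cells, against 7.22, 7.04 and 7.27 in vector control cells. The groups did not overlap, and the log2 difference of -0.45 had an adjusted p of 0.0254 from limma, with a 1.37-fold change. That adjusted p also passed no more in 5 of the 6 fits without 1 array (0.0241 to 0.0926 over the 6). Probe set 211844_s_at gave a log2 difference of -0.30 (adjusted p = 0.0544 from limma). The brightest, 210841_s_at, read 7.63, 7.80 and 7.63 in CRB3-expressing cells, against 7.84, 7.88 and 7.85 in vector control cells. Its groups were also separate, but by little (log2 difference -0.17, adjusted p = 0.267 from limma). Probe sets 225566_at, 214632_at and 222877_at were lower too, by -0.23, -0.22 and -0.16 (adjusted p = 0.200, 0.334 and 0.406 from limma). Probe set 219367_s_at lay on the other side, with 6.99 ± 0.19 in CRB3-expressing cells, against 6.85 ± 0.082 in vector control cells (SD, n = 3 each; log2 difference 0.14, adjusted p = 0.546 from limma). Also on that side was 223510_at, at 0.029 (adjusted p = 0.922 from limma). Averaged over the 11 probe sets, of which 3 were dim in both groups, NRP2 had a log2 difference of -0.11 (SE 0.051, adjusted p = 0.268 from limma).

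**Figure D2:**
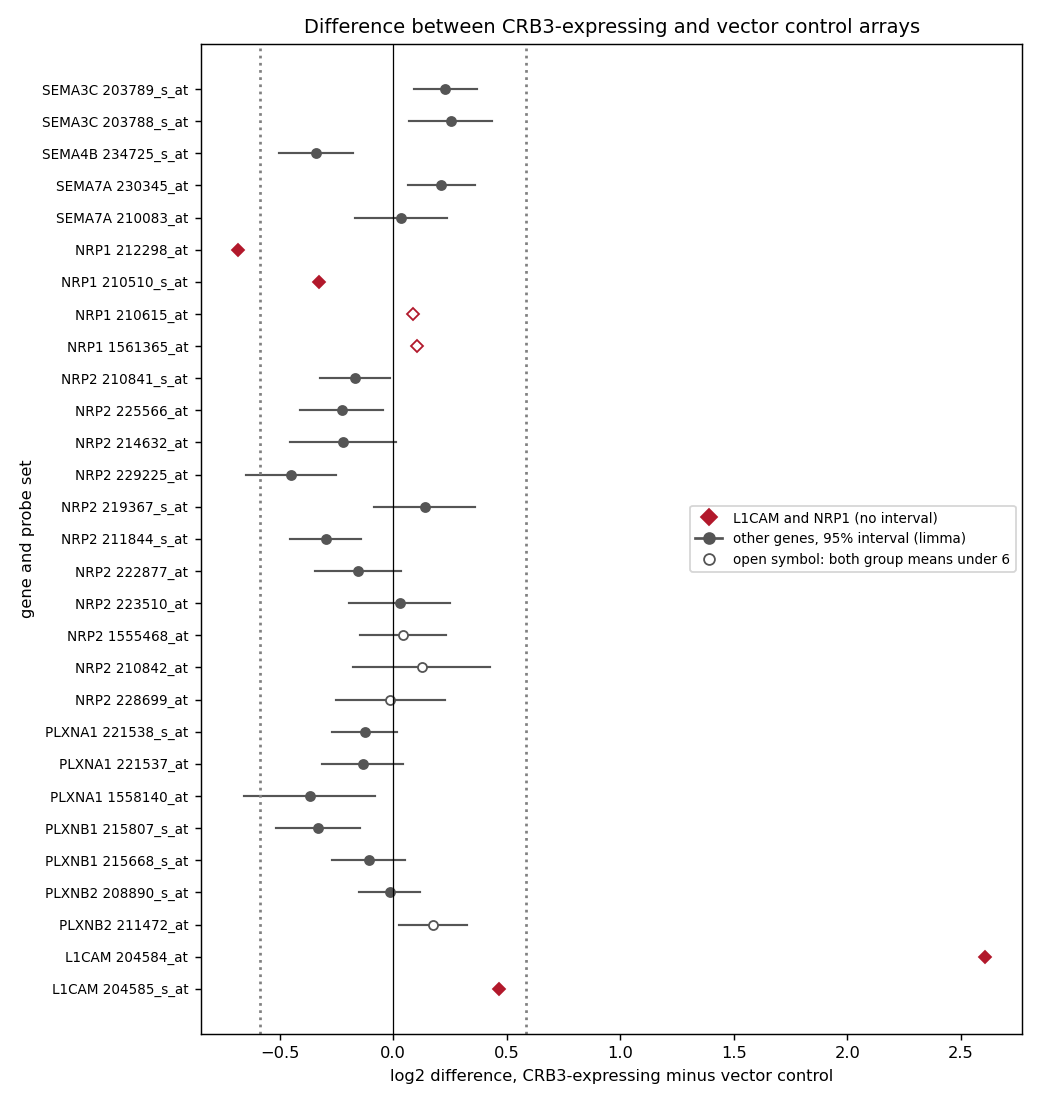
Difference between the group means (x axis, log2, CRB3-expressing minus vector control) of each of the 29 probe sets (y axis); grey bars are 95% intervals from limma, red diamonds are L1CAM and NRP1, given without an interval, open symbols have both group means under 6, and dotted lines mark a 1.5-fold change. L1CAM 204584_at stands at 2.61 and NRP1 212298_at at -0.68, outside the dotted lines, while the points of the other 7 genes lie between -0.45 and 0.25.

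Of the receptors, no plexin probe set was called. PLXNB2, a receptor for class 4 semaphorins, read 10.32, 10.41 and 10.35 in CRB3-expressing cells, against 10.39, 10.37 and 10.36 in vector control cells. The groups overlapped, the log2 difference was -0.016 (SE 0.059), and the 95% interval ran from -0.15 to 0.12. Its other probe set was dim in both groups (log2 difference 0.17, adjusted p = 0.235 from limma). PLXNA1 transmits class 3 semaphorin signals together with a neuropilin. Its brightest probe set gave 10.11, 10.16 and 10.12 in CRB3-expressing cells, against 10.29, 10.30 and 10.18 in vector control cells. These groups did not overlap, but the log2 difference was only -0.13 (95% interval -0.27 to 0.019, adjusted p = 0.380 from limma). The other 2 PLXNA1 probe sets had log2 differences of -0.13 and -0.37, with adjusted p-values of 0.453 and 0.190 from limma.

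PLXNB1, the receptor for SEMA4D, which can associate with the receptor kinases MET and ERBB2, was lower by more than the range of its replicates in 1 of 2 probe sets. Probe set 215807_s_at read 8.46, 8.46 and 8.66 in CRB3-expressing cells, against 8.96, 8.82 and 8.78 in vector control cells. The log2 difference was -0.33 (SE 0.081, 95% interval -0.52 to -0.15, adjusted p = 0.0681 from limma), which did not pass. In the second probe set the groups overlapped, with a log2 difference of -0.11 (95% interval -0.27 to 0.054). Averaged over their probe sets, PLXNB1 and PLXNA1 had log2 differences of -0.22 and -0.21 (adjusted p = 0.0856 and adjusted p = 0.125 from limma).

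L1CAM showed the widest separation of the 9 genes, and its 2 probe sets differed widely in size. Probe set 204584_at read 8.05, 7.74 and 8.25 in CRB3-expressing cells, against 5.21, 5.61 and 5.39 in vector control cells. The lowest CRB3-expressing array was far above the highest vector control array, and the means were 8.01 ± 0.26 and 5.40 ± 0.20 (SD, n = 3 each), a log2 difference of 2.61 (6.09-fold). The vector control values are dim, and without detection calls they were not shown to be above background. Probe set 204585_s_at read 6.57, 6.73 and 6.91 in CRB3-expressing cells, against 6.28, 6.24 and 6.31 in vector control cells. The groups were again separate, but the log2 difference was 0.47 (1.38-fold). An identifier ending in _s_at marks a probe set that matches several transcripts. Averaged over both probe sets, L1CAM had a log2 difference of 1.54 (2.90-fold).

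Neurons and Schwann cells are well-known sources of L1CAM, and markers of those cells were read beside it. Of 6 measured neuronal and Schwann cell markers, 0 were called and 1 had an unadjusted p under 0.05 by limma. Of all named genes, 1.90% were called and 18.8% passed the unadjusted rule. The mean of the list was 6.18 to 6.29 on CRB3-expressing arrays and 6.18 to 6.22 on vector control arrays. The marker under 0.05 was MBP, the brightest of the list. MBP was at 9.33 in CRB3-expressing cells, against 9.13 in vector control cells, without overlap (log2 difference 0.20, adjusted p = 0.1785 from limma). STMN2, ELAVL4 and SYT1 were dim in both groups, and SNAP25 had a log2 difference of -0.0015. SOX10 had values of 7.22 in CRB3-expressing cells, against 7.15 in vector control cells (log2 difference 0.072, adjusted p = 0.837 from limma).

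The RefSeq tables for GRCh38.p14 hold promoter windows, from 250 bases before to 50 after a transcript start, for 8 of the 9 genes. The L1CAM window is shown because L1CAM had the largest difference, and a SEMA3C window beside it, for the ligand with both probe sets higher without overlap. Each gene has 2 windows, and the one shown is that with more GC boxes. Capitals mark the GC box GGGCGG on either strand. The L1CAM window shown is chrX:153875895-153876194 on the minus strand, and the SEMA3C window shown is chr7:80919002-80919301 on the minus strand. On the minus strand a gene begins at its higher coordinate, which is 153886173 for L1CAM and 80922389 for SEMA3C. Both L1CAM windows therefore lie inside the gene, downstream of its outermost start. The SEMA3C window shown also lies inside its gene, while its other window covers the outermost start.
L1CAM: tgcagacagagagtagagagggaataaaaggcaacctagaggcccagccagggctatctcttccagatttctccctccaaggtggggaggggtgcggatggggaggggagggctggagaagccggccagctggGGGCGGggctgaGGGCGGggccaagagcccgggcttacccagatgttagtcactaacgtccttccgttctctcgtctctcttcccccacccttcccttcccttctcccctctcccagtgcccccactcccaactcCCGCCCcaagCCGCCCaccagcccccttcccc
SEMA3C: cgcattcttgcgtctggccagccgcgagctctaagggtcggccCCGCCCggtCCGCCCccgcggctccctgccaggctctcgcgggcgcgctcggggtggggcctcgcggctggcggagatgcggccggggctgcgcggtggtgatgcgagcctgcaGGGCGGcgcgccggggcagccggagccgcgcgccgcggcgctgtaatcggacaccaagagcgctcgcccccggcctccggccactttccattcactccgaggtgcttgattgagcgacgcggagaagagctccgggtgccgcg
The L1CAM window shown holds 4 GC boxes and 10 CpG dinucleotides in 300 bases, and its other window, which overlaps it, 2 and 8. The SEMA3C window shown holds 3 GC boxes and 46 CpG dinucleotides, and its other window 0 and 2, so the order of the genes in CpG content depends on the window. The median over all 35116 promoter windows was 14 CpG dinucleotides, and 45% of them held a GC box. A GC box was found in 12 of the 14 windows of these genes. The 14 are not independent, because the windows of L1CAM and those of SEMA7A overlap. Their GC content ran from 36% to 83%, and most were above the median of 58.7% over all windows. The E-box CAGGTG was found in 1 of the 14, in PLXNB1, against 20.6% of all windows, and the AP-1 site TGACTCA in 0 of the 14, against 4.95% of all windows, each sought on both strands. These are matches of letters within the windows and do not show binding.

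Other genes of the same signalling routes were read from a list of 83 genes, of which 81 were measured in a probe set of their own, each in its brightest. Of the 81, 1 was called higher, 0 were called lower and 80 were not called, against 1.90% of all 19775 named genes called (1.43% higher and 0.465% lower). With the adjusted p alone, 6 were higher and 3 were lower, while 3.37% of all named genes were higher and 1.77% lower on that rule. Without adjustment, 12 of the 81 were higher and 8 lower at p under 0.05 (limma), while 10.4% of all named genes were higher and 8.39% lower. The median log2 difference was 0.029, and that of all named genes 0.0066.

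The gene called higher was FYN, a Src-family tyrosine kinase that acts downstream of SEMA3A and plexins in mouse neurons. Its brightest probe set read 7.17, 7.33 and 7.17 in CRB3-expressing cells, against 5.77, 5.67 and 5.85 in vector control cells. The groups lay far apart, with a log2 difference of 1.46 (SE 0.076, adjusted p = 1.22e-05 from limma). A second FYN probe set, 216033_s_at, was also called higher (log2 difference 0.96, adjusted p = 0.000267 from limma). In both, the vector control means (5.76 and 5.37) are dim and were not shown to be above background. The other 3 FYN probe sets were dim in both groups, with log2 differences of 0.36, 0.012 and -0.00080, and were not called. The called probe sets both carry the _s_at suffix, and FYN was not called when such probe sets were left out or when its 5 probe sets were averaged.

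Of the 32 measured partners and effectors of neuropilins and plexins, FYN was the one called, and 9 were higher and 1 lower at an unadjusted p under 0.05 from limma (10.4% and 8.39% of all named genes). The group median was 0.11 on the log2 scale. RND3, a small GTPase that acts on the actin cytoskeleton, differed by 0.50 on the log2 scale (SE 0.067, adjusted p = 0.00345 from limma), with 10.72, 10.68 and 10.58 in CRB3-expressing cells, against 10.16, 10.20 and 10.11 in vector control cells. That is a separation of the groups with a 1.41-fold change, under the fold threshold. MYO6, an actin motor of endocytic traffic, and MRAS, a Ras-family GTPase, had log2 differences of 0.38 and 0.39 (adjusted p = 0.00789 and adjusted p = 0.0125 from limma). The collapsin response mediators DPYSL2 and DPYSL3, cytoskeletal proteins that relay semaphorin signals in neurons, lay on opposite sides, at 0.26 and -0.35 (adjusted p = 0.0496 and adjusted p = 0.0314 from limma). RND3, MYO6, MRAS, DPYSL2 and DPYSL3 were not called, and they are named after their values were seen.

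The 17 semaphorins outside the 9 genes had 0 calls and 0 with an unadjusted p under 0.05 by limma, with log2 differences between -0.12 and 0.15 and 8 dim in both groups. The smallest p-values were those of SEMA3F, a secreted ligand of NRP2 (log2 difference 0.15, adjusted p = 0.463 from limma), and SEMA5A, a membrane semaphorin (-0.12, adjusted p = 0.470 from limma). The 6 further plexins had 0 calls and 3 with an unadjusted p under 0.05 by limma, against 18.8% of all named genes. PLXNA3, named after its value was seen, lay on the higher side, with a log2 difference of 0.22 (adjusted p = 0.246 from limma). PLXNA2, a relative of PLXNA1, had a log2 difference of -0.24 (adjusted p = 0.101 from limma), and PLXNC1, the plexin that binds SEMA7A, one of -0.35 from a level of 5.69 in CRB3-expressing cells, against 6.03 in vector control cells (adjusted p = 0.239 from limma). Of 7 VEGF ligands and receptors, 0 were called and 1 had an unadjusted p under 0.05 by limma, the lymphatic growth factor VEGFC. It read 7.64, 7.72 and 7.67 in CRB3-expressing cells, against 7.94, 7.99 and 7.98 in vector control cells (log2 difference -0.29, adjusted p = 0.0319 from limma, 1.22-fold). The groups were tight and separate, and the change was small. The VEGF receptor KDR was dim in both groups (log2 difference 0.20, adjusted p = 0.320 from limma).

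Of 19 genes of the L1 family and partners of L1CAM, 0 were called, and 6 had an unadjusted p under 0.05 by limma, with 2 higher and 4 lower (10.4% and 8.39% of all named genes). EZR, which encodes ezrin, a linker of membrane proteins to actin, had a log2 difference of 0.54 in its brightest probe set (SE 0.063, adjusted p = 0.00157 from limma). A second EZR probe set was called higher, at 0.59 (adjusted p = 0.00116 from limma), just past the 1.5-fold line. NRCAM, a close relative of L1CAM, was lower, with a log2 difference of -0.37 (adjusted p = 0.0229 from limma), under the fold threshold. The other L1 family members CHL1 and NFASC had log2 differences of 0.15 and 0.10, and CHL1 was dim in both groups. ADAM10 and ADAM17, proteases that shed the L1CAM ectodomain, had log2 differences of 0.026 and 0.086, neither of which passed.

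**Figure D3:**
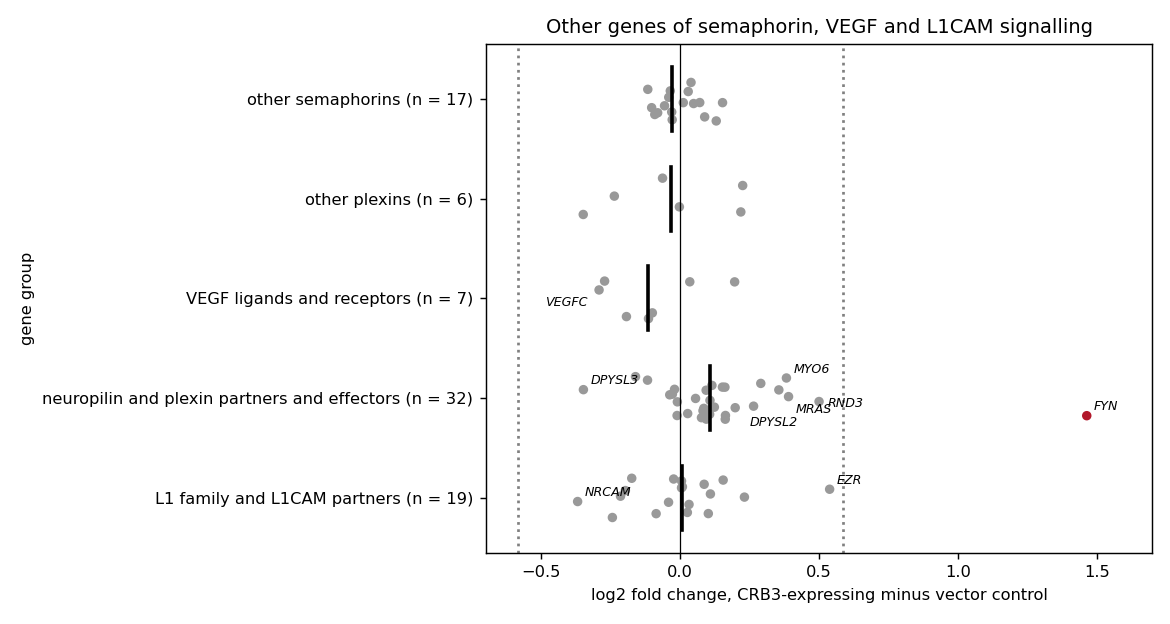
Log2 fold change (x axis, CRB3-expressing minus vector control) of the 81 measured genes of 5 groups (y axis); each point is a gene in its brightest probe set, red where called higher and grey where not called, black bars are group medians, dotted lines mark a 1.5-fold change, and genes with an adjusted p under 0.05 are named. FYN stands alone at 1.46, EZR and RND3 lie just inside the line at 0.54 and 0.50, and the other semaphorins stay between -0.12 and 0.15.

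Genes whose pattern over the 6 arrays was most like that of L1CAM 204584_at were found by the mean absolute difference of their deviations from their own mean. The closest were the keratin KRT16 (mean absolute difference 0.12, with 9.49 in CRB3-expressing cells, against 6.99 in vector control cells), the microtubule-associated protein MAP2 (0.12, with 8.33 in CRB3-expressing cells, against 5.70 in vector control cells) and MACC1 (0.16, with 7.54 in CRB3-expressing cells, against 4.67 in vector control cells). The closest to NRP1 212298_at were RPGR (0.042), the homeobox factor IRX3 (0.042) and FRY (0.051), with log2 differences of -0.62, -0.66 and -0.70. This likeness follows mostly from the size of the difference between the groups, which chose L1CAM and NRP1, so it is a description.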

How the data were processed

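Total RNA of 3 CRB3-expressing and 3 vector control MCF-10A samples was hybridized to 6 Affymetrix Human Genome U133 Plus 2.0 arrays, 1 per sample. Background correction and normalization by the authors used Robust Multichip Average in R, and their deposited log2 values (1 for each probe set on each array) were analysed without further change. Tool versions are not given in the sources used here.

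Differences (CRB3-expressing minus vector control) came from lmFit and eBayes of limma 3.58.1, run in R 4.3.3 on the 54613 probe sets that are not array controls (62 were left out). P-values were adjusted over all of these by Benjamini-Hochberg. The call thresholds followed the methods of the study. In the platform annotation, 41091 probe sets have 1 symbol, 1801 have several and 11721 have none. Entrez identifiers were checked against RefSeq (GRCh38.p14): 0 symbols changed and 54 probe sets had no match. The brightest probe set of a gene has the highest 6-array mean. The 9 genes and all lists were chosen with earlier results of these data known. The fit was tested on simulated data. Named genes are all probe sets of the 9 genes, called genes of the wider list, the 2 smallest p-values in a group without calls, and the 3 nearest patterns of L1CAM and NRP1; others are named after their values were seen. VEGFD and GIPC1 of the wider list were not analysed here, nor were some of the cell type markers. The number of arrays limits the precision. An exact permutation test of 3 against 3 cannot go below p = 0.1, so none is given.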

Additional observations from a re-analysis of the deposited data

How the results depend on the processing

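Of the 295 values of the 23 probe sets of the 7 tested genes under other settings (replicate block, other variance priors, median-centring, quantile normalization, a filter on dim probe sets, array weights and leaving out each array), 288 kept their sign and their side of the joint threshold on adjusted p and fold, 0 crossed it, and 7 turned sign without being called, all when 1 array was left out. Their log2 differences then ranged from -0.041 to 0.0049 for PLXNB2 208890_s_at (positive without CRB3-expressing replicate 1), from -0.054 to 0.12 for NRP2 223510_at (negative without CRB3-expressing replicate 3 or vector control replicate 2), from -0.082 to 0.12 for NRP2 228699_at (positive without CRB3-expressing replicate 3 or vector control replicate 1), from -0.023 to 0.12 for NRP2 1555468_at and from -0.052 to 0.092 for SEMA7A 210083_at (both negative without vector control replicate 3). L1CAM 204584_at ranged from 2.49 to 2.75 and NRP1 212298_at from -0.73 to -0.61. On the adjusted p alone, 2 of the 23 passed, against 0 to 2 without 1 array, 1 with the replicate block, 0 with an ordinary pooled variance, 3 with array weights and 5 with a trended and robust prior. With the filter on dim probe sets, 6 of the 19 that remained passed. The share of all probe sets passing on the adjusted p alone was not counted under these other settings. The adjusted p ranged from 0.00858 to 0.178 for NRP2 229225_at, from 0.00551 to 0.142 for SEMA4B 234725_s_at and from 0.0194 to 0.233 for SEMA3C 203789_s_at. The 4 counts of calls among the other members and pathway genes were the same without any single array. Over all probe sets, 490 to 526 were higher and 180 to 221 lower when an array was left out. With an ordinary pooled variance 297 were higher and 82 lower, with no fold threshold 1226 and 759, and with a 2-fold threshold 196 and 44. With no fold threshold, 1 of the other 7 genes was lower in its brightest probe set (SEMA4B), and 6 pathway genes were higher and 3 lower. The pathway count of 1 higher became 0 with the mean over probe sets, and 0 without _s_at and _x_at probe sets. The replicate numbers showed no clear pairing of the samples (correlations of deviations -0.085, 0.064 and 0.029). Unmatched replicate numbers gave -0.19 to 0.16. With 3 arrays per group, these values cannot show that no batch was shared. With the replicate block 512 probe sets were higher and 198 lower, with 0 of the other members and 1 pathway gene called.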
